A study of Mus musculus with 20 samples.

Results

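The genes described here encode 6 subunits of the NMDA receptor, the ion channel that ketamine blocks: Grin1, Grin2a, Grin2b, Grin2c, Grin2d and Grin3a. They were taken by symbol, a rule that uses no measured value, and are 6 of the 31053 genes listed in the files. Their counts come from single-cell RNA-seq libraries of the basolateral amygdala (BLA), a brain region that handles threat and emotional learning, with 1 library from each of 10 male wild-type C57BL/6 mice of 13 weeks. For 6 weeks the drinking water held either corticosterone (CORT, 35 µg/ml), a stress hormone, or its vehicle 2-hydroxypropyl cyclodextrin (BCD), and 24 h before tissue collection each mouse had 1 intraperitoneal injection of ketamine (Ket, 10 mg/kg) or saline (Sal). Mice 9901 and 9947 formed the BCD/Sal group, mice 9946, 9949 and 9986 the BCD/Ket group, mice 9969 and 9970 the CORT/Sal group, and mice 9967, 9968 and 9971 the CORT/Ket group. All cells were dissociated from tissue, so fewer surviving cells of a type and fewer cells in the tissue cannot be told apart.

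An NMDA receptor is an assembly of 2 GluN1 subunits, encoded by Grin1, with a pair of GluN2 or GluN3 subunits. The GluN2 subunits (encoded by Grin2a to Grin2d) bind glutamate and set how long the channel stays open and how strongly magnesium blocks it, whereas GluN1 and GluN3 bind glycine or D-serine. In the forebrain Grin2b dominates before birth and Grin2a is added as synapses mature, and ketamine enters the open pore and blocks it.

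By the mm9 annotation (GENCODE M1, NCBIM37), each member is a protein-coding gene on the minus strand, and the files give 1 count per gene and barcode. Grin1 (ENSMUSG00000026959) lies at chr2:25146701-25174707, Grin2a (ENSMUSG00000059003) at chr16:9577803-9995014 and Grin2b (ENSMUSG00000030209) at chr6:135679844-136123529. Grin2c (ENSMUSG00000020734) lies at chr11:115110483-115128557, Grin2d (ENSMUSG00000002771) at chr7:53087253-53126298 and Grin3a (ENSMUSG00000039579) at chr4:49674483-49858616. The antisense gene Grin1os overlaps Grin1 and held 18 UMIs (unique molecular identifiers, each standing for 1 captured RNA molecule) against 3484 for Grin1. Grin3b, the remaining subunit gene, held 3 UMIs and is not described further. Promoter sequences from RefSeq (build GRCm38.p6) were at hand for Grin1, Grin2c and Grin2d. Those of Grin1 and Grin2c are shown because these genes had opposite patterns across cell classes, Grin1 high in neurons and near 0 in astrocytes and Grin2c the reverse. The 250 bases before the start of Grin1 (chr2:25319188-25319437, minus strand) and of Grin2c (chr11:115267244-115267493, minus strand) read 5′ to 3′, with the E box CACGTG and the GC box GGGCGG in capitals, both searched on both strands:
Grin1: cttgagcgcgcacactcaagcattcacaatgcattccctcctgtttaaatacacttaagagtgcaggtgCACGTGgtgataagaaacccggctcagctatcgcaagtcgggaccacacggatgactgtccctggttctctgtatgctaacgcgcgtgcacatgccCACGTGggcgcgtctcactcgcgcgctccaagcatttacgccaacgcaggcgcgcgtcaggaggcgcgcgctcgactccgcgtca
Grin2c: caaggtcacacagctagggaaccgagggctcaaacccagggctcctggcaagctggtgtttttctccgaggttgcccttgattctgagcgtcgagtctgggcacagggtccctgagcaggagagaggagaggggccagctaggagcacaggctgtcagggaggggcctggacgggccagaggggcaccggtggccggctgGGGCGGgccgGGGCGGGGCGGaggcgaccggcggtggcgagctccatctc
The Grin1 promoter held 2 E boxes, 0 GC boxes and 27 CG dinucleotides, at a GC content of 58.8%. The Grin2c promoter held 0 E boxes, 3 GC boxes, of which a pair overlap by 1 letter, and 15 CG dinucleotides, at a GC content of 68.8%. Of 32851 mouse promoters of this length, 6.02% held the E box and 32.7% the GC box, and the median promoter had 6 CG dinucleotides and a GC content of 52.4%. The Grin2d promoter (chr7:45866682-45866931, minus strand) had neither motif. These matches are letters in a window and not measured binding sites.

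Of 28722 deposited barcodes, 8305 had at least 200 genes and a mitochondrial share of at most 12.5% and were kept. Libraries held 811628 to 7281768 UMIs and gave 135 to 2397 kept barcodes. The library of mouse 9970 stood apart: its median mitochondrial share was 3.22% against 33.2% to 57.9% in the other 9 libraries, it kept 97.1% of its barcodes, and 97.8% of its kept barcodes fell into no named class. Of its 52 named barcodes, 11 excitatory neurons, 11 endothelial cells and 20 other immune cells entered the fit between classes. The immune cells were in none of the comparisons drawn from that fit. Treatment effects that rest on the library of mouse 9970 are also given without it. Libraries shared 120 of 28595 distinct barcode sequences (0.42%), and 21 of 8280 (0.254%) among kept barcodes. Clustering without the members and without 36 listed partner genes gave 1045 barcodes of excitatory neurons, 299 of inhibitory neurons, 1358 of astrocytes, 407 of oligodendrocyte precursor cells (OPCs), 382 of oligodendrocytes, 863 of microglia and 1094 of endothelial cells. Levels are given as CPM, the UMIs of a gene per 1000000 UMIs summed over a class in 1 mouse, for mice with at least 10 barcodes of the class. The libraries count 3′ ends and not gene length, so levels of a gene were compared between cells and not with those of another gene.

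Grin1, Grin2a and Grin2b were high in both neuron classes and low in every glial and vascular class. Grin1 ran from 330 to 626 CPM in excitatory neurons of 10 mice (median 533), a mean of 512 ± 97.6 (SD), and from 335 to 1094 CPM in inhibitory neurons of 9 mice (median 448, mean 560 ± 260). Both neuron classes therefore overlapped for Grin1, and both lay above OPCs at 22.3 to 87.5 CPM (47.7 ± 24.8, n = 6) and astrocytes at 0 to 44.2 CPM (9.25 ± 13.7, n = 9). Endothelial cells, a vascular class outside the synapse, held 10.6 ± 12.3 CPM (n = 10), so the astrocyte level of Grin1 was at the level of these cells. Grin2a had a range of 364 to 991 CPM in excitatory neurons (median 659, mean 660 ± 183, n = 10) and of 183 to 645 CPM in inhibitory neurons (median 573, mean 486 ± 162, n = 9). Its means in OPCs and astrocytes were 22.0 and 5.63 CPM. Grin2b ran from 511 to 1690 CPM in excitatory neurons (median 1067, mean 1140 ± 458) and from 544 to 1193 CPM in inhibitory neurons (median 1049, mean 984 ± 220). The lowest excitatory value was that of mouse 9970, which had only 3911 UMIs in 11 excitatory barcodes. For Grin2b astrocytes were not at the lowest level, with 0 to 210 CPM (97.7 ± 71.3) against means of 46.8 in OPCs, 34.7 in microglia, 23.0 in endothelial cells and 10.0 in oligodendrocytes.

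**Figure D1:**
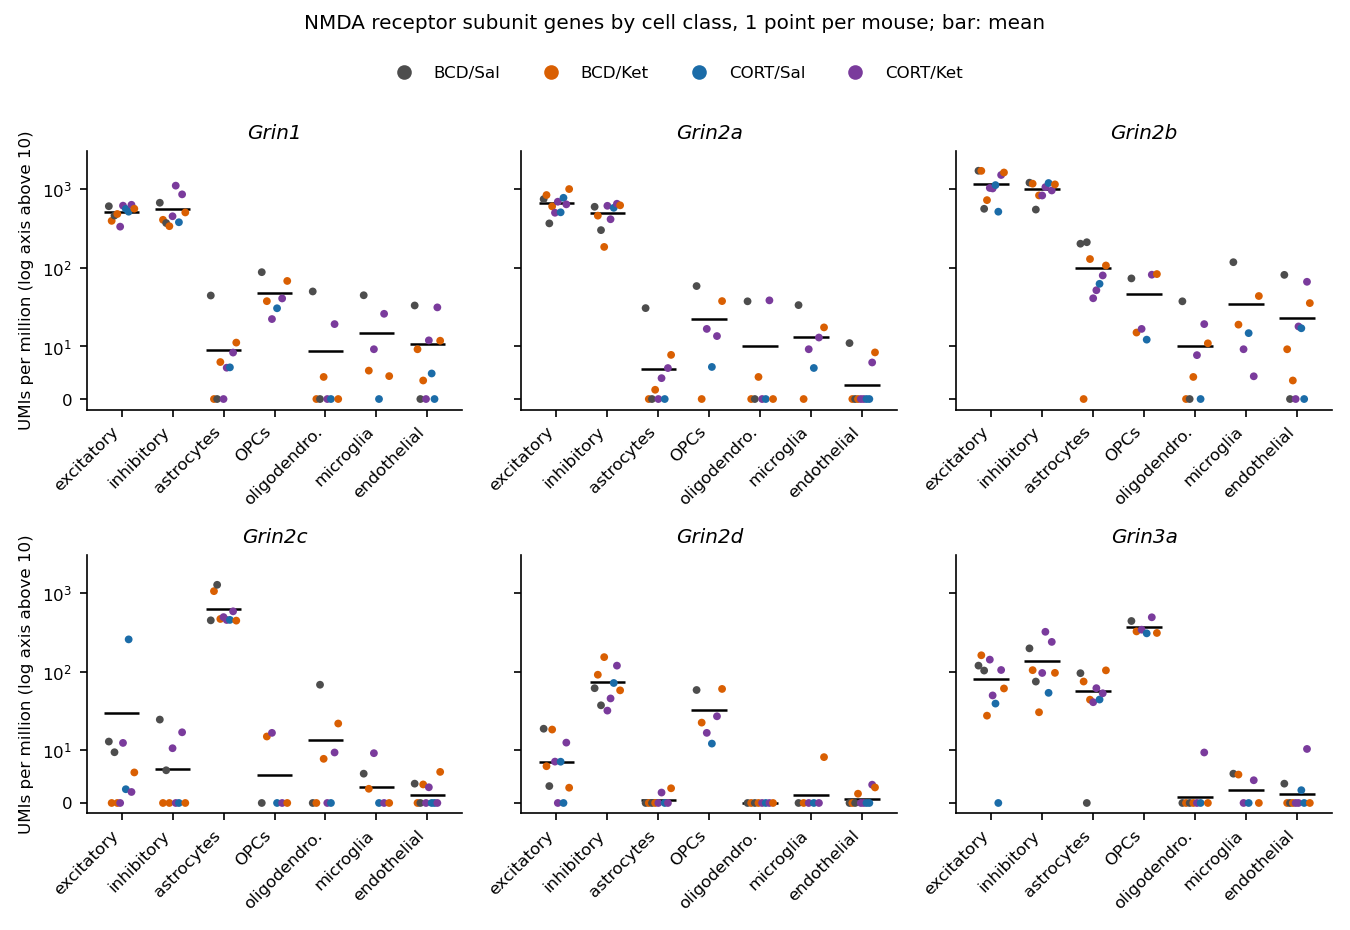
Level of each member in CPM (vertical axis, logarithmic above 10 and linear below) in 7 cell classes, with 1 point per mouse coloured by treatment group and a bar at the mean. Grin1, Grin2a and Grin2b are highest in both neuron classes, Grin2c in astrocytes (442 to 1258 CPM) and Grin3a in OPCs (305 to 487 CPM).

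Grin2c, whose subunit gives receptors with weak magnesium block, was highest in astrocytes in these libraries. Its level in astrocytes ran from 442 to 1258 CPM in 9 mice (median 464, mean 625 ± 306), while inhibitory neurons, oligodendrocytes, OPCs and endothelial cells had means of 6.49, 13.5, 5.28 and 1.61 CPM. In excitatory neurons the mean of 30.1 CPM rested on 1 UMI in the 3911 UMIs of mouse 9970, equal to 256 CPM, and the other 9 mice lay between 0 and 12.9 CPM. The highest astrocyte values, 1258 CPM in mouse 9947 and 1046 CPM in mouse 9946, came from 14 and 27 barcodes with 12 and 14 Grin2c UMIs. Among the members ordered by mean level, the step from astrocytes to the next class for Grin2c was the only one between neighbouring classes whose ranges over mice did not overlap.

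Grin3a, which encodes the glycine-binding GluN3A subunit of channels with low calcium flow, was highest in OPCs. The 6 mice with enough OPCs had 305, 308, 323, 339, 437 and 487 CPM, a mean of 367 ± 76.8. Inhibitory neurons followed with 134 ± 95.8 CPM (30.5 to 319), then excitatory neurons with 80.6 ± 52.8 (0 to 161) and astrocytes with 57.5 ± 31.3 (0 to 104). The highest inhibitory value lay above the lowest OPC value, and the 3 lower classes overlapped throughout. Grin2d, the subunit of slowly closing channels known from interneurons, was the rarest member with 182 UMIs in all kept barcodes. It had 74.2 ± 40.0 CPM in inhibitory neurons (32.0 to 152, n = 9), 32.8 ± 21.1 in OPCs (12.2 to 60.2, n = 6), 7.86 ± 6.86 in excitatory neurons (0 to 18.8, n = 10) and 0.532 in astrocytes. The Grin2d ranges of inhibitory neurons and OPCs overlapped, as did those of OPCs and excitatory neurons. In oligodendrocytes 0 Grin2d UMIs were counted among 1021896, so the OPC level was at least 9.87-fold higher when set against a floor of 3 counts over the class.

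A further class, other immune cells, had high means for Grin1 (149 ± 145 CPM) and Grin2b (371 CPM). Its 136 barcodes also held the 15 listed excitatory markers at a summed 3956 ± 2052 CPM, against 5798 in excitatory neurons, 96.4 in endothelial cells, 170 in astrocytes, 429 in OPCs and 446 in oligodendrocytes. The part of neuronal RNA in the Grin levels of these immune barcodes was not tested. The class was part of the fit between classes but of none of the comparisons drawn from it. In astrocytes 13 of the 15 excitatory markers had a UMI (Slc17a6 and Rspo2 were at 0) and in endothelial cells 12. The number of Grin2b UMIs per 100 excitatory marker UMIs was 56.4 in astrocytes, 58.8 in inhibitory neurons, 23.4 in excitatory neurons, 24.6 in endothelial cells, 14.2 in microglia, 9.80 in OPCs and 2.03 in oligodendrocytes.

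The share of barcodes with a UMI followed the same pattern. Of excitatory neurons 63.3% held Grin1, 61.1% Grin2a and 76.9% Grin2b, and when each barcode was thinned to 1000 UMIs (697 of the 1045 were deep enough) these shares were 44.6%, 46.3% and 68.0%. In endothelial cells, at a median depth of 1369 UMIs against 1531 in excitatory neurons, the shares were 2.56%, 0.731% and 4.39%, or 1.67%, 0.419% and 3.12% when thinned. The endothelial shares serve here as the background against which the others are read. Grin2c was found in 51.3% of astrocytes (35.1% thinned) and in 0.548% of endothelial cells (0.413% thinned), and Grin3a in 43.7% of OPCs (28.2% thinned) and in 0.457% of endothelial cells (0.311% thinned). Median depths were 1543 UMIs in astrocytes and 1190 in OPCs. Grin2b was found in 15.7% of astrocytes (8.99% thinned), above its endothelial share, while Grin1 in 1.91% of astrocytes (1.17% thinned) was below its endothelial share. Grin2d was found in 12.7% of inhibitory neurons (6.59% thinned, median depth 1978 UMIs) and in 0.274% of endothelial cells (0.135% thinned).

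A UMI of Grin1 together with one of any of the 4 Grin2 genes was present in 58.5% of excitatory neurons, 56.5% of inhibitory neurons, 1.55% of astrocytes and 1.72% of OPCs. A Grin2 UMI without a Grin1 UMI was present in 27.5%, 28.4%, 57.1% and 9.83% of these classes. No share expected from the detection of each gene alone was computed. Grin2a was found together with Grin2b in 52.6% of excitatory neurons. Of the 696 astrocytes with Grin2c, 2.73% held Grin1, against 1.06% of the other astrocytes, which were shallower (median 1240 against 1900 UMIs). Over pooled UMIs, the number of Grin2c UMIs per Grin1 UMI was 41.3 in astrocytes and 0.0129 in excitatory neurons. For OPCs the number of Grin3a UMIs per Grin1 UMI was 8.22, against 0.172 in excitatory neurons and 0.161 in endothelial cells, and of the 178 OPCs with Grin3a 5.62% held Grin1, compared with 6.99% of OPCs without it. These ratios compare different genes by their UMIs and carry the unknown capture of each gene, so they are given only for their change between classes.

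Summed counts per mouse and class were then tested between classes in edgeR (quasi-likelihood, mouse as a block, Benjamini-Hochberg adjusted p below 0.05 over all genes tested). The classes came from clustering on other genes, and the share of all genes called is given beside each count. Grin2d did not pass the filter on low counts in any of them, and the other 5 members were tested. Between inhibitory and excitatory neurons 1 of 5 members was called, where 13.2% of 8006 genes were called. Grin2a was lower in inhibitory neurons, with a log2 fold change of -0.67 ± 0.18 (SE, adjusted p = 0.00276), or -0.44 relative to the median of all genes, which was itself at -0.23. Among all genes called, 22.2% were higher in inhibitory neurons with TMM scaling and 48.3% to 59.8% with the other scalings. The Grin2a call depended on the scaling and the model: it was lost with RLE factors (adjusted p = 0.289), library totals (0.192), DESeq2 (0.371) and no mouse term (0.148), without mouse 9949 (0.113) or 9986 (0.101), and at a mitochondrial limit of 25% (0.0804). Grin1 had -0.28 ± 0.17 (adjusted p = 0.322), a direction that turned with RLE factors, library totals and DESeq2, Grin2b had -0.54 ± 0.20 (0.0617, called lower in 9 of 22 alternatives, among them without mouse 9947 at -0.59 and without mouse 9970 at -0.56) and Grin3a 0.07 ± 0.24 (0.906). Without the filter on low counts, where 6.71% of 20152 genes were called, Grin2d was higher in inhibitory neurons by 2.35 ± 0.39 on the log2 scale (adjusted p = 1.83e-07). Grin2d was called higher in all 11 alternatives in which it could be tested, at 2.35 to 3.14. Apart from the fit without the filter, these were settings in which Grin2d passed it. Passing depended on the classes where Grin2d was high, among them inhibitory neurons, and the settings share cells. The 11 calls are therefore no independent support for the difference. RLE factors, library totals, DESeq2 and no mouse term, where the Grin2a call was lost, gave no Grin2d value. In sub-clusters of the inhibitory neurons, Grin2d was at 98.8 CPM in 82 interneuron-like barcodes, 57.5 CPM in 173 other GABAergic barcodes and 5.22 CPM in 44 striatal-like barcodes, pooled over mice and given without a test because 81.8% of the striatal-like barcodes came from 1 mouse.

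**Figure D2:**
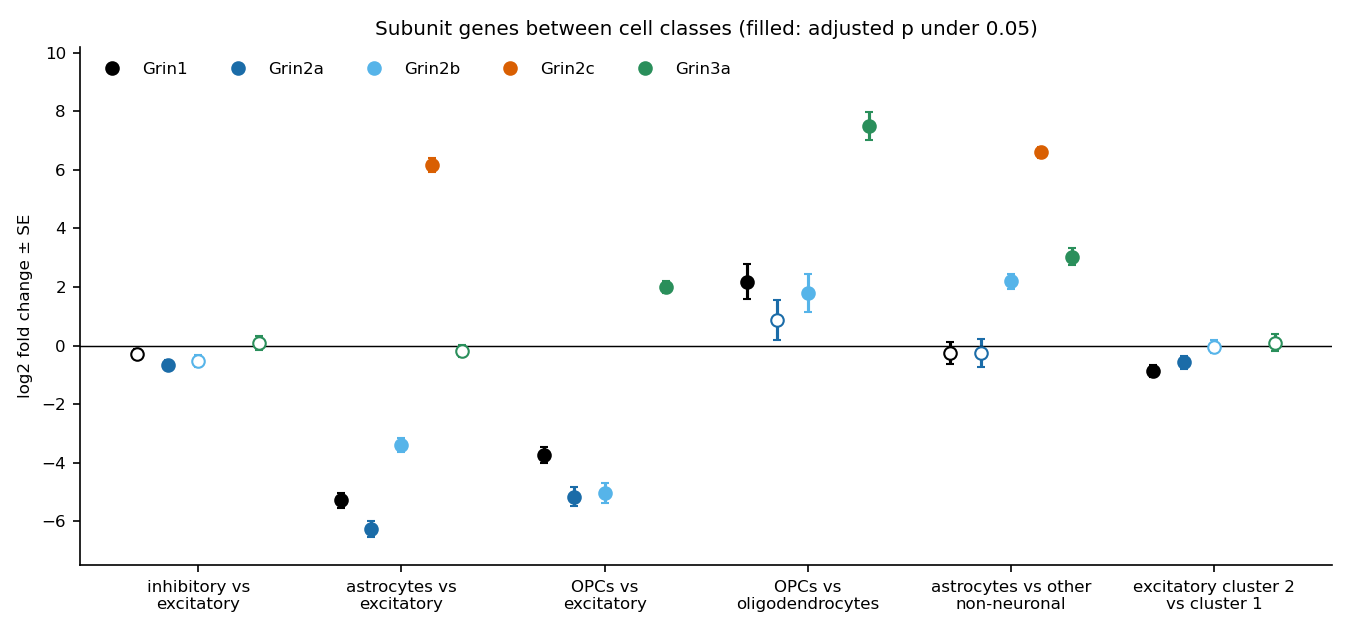
Log2 fold changes (vertical axis) of the members tested (Grin2c where it was counted in more than a few UMIs) in 5 comparisons of cell classes and between the excitatory clusters (cluster 2 is the smaller), with bars of 1 SE derived from the edgeR F statistic and filled points for an adjusted p below 0.05. In astrocytes against excitatory neurons Grin2c stands at 6.17 and Grin1, Grin2a and Grin2b between -6.26 and -3.41, while the point of Grin3a in OPCs against oligodendrocytes is fitted on 1 oligodendrocyte UMI.

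Astrocytes differed from excitatory neurons in 4 of 5 members, where 63.5% of genes were called. Grin2c was higher by 6.17 ± 0.25 on the log2 scale (adjusted p = 1.67e-58), whereas Grin1 (-5.28 ± 0.26), Grin2a (-6.26 ± 0.28) and Grin2b (-3.41 ± 0.24) were lower. All 4 calls were kept in each of 23 alternatives, among them the fit without the filter on low counts. In the main fit Grin2c passed that filter through astrocytes, the class where it was high. Its calls here and against the other non-neuronal classes are therefore no independent support for the difference. Grin3a was at -0.18 ± 0.22 (adjusted p = 0.468), and passed the test only without mouse 9949 (-0.57, adjusted p = 0.0181) or without mouse 9986 (-0.73, adjusted p = 0.00454). Against the mean of oligodendrocytes, OPCs, microglia and endothelial cells, where 51.8% of genes were called, astrocytes were higher in 3 of 5 members. Grin2c was higher by 6.60 ± 0.19, Grin3a by 3.03 ± 0.29 and Grin2b by 2.19 ± 0.26 (adjusted p = 5.54e-13), in each of 22 alternatives, and Grin1 and Grin2a had -0.24 ± 0.37 and -0.26 ± 0.48 (adjusted p = 0.634 and 0.709). The average over these 4 classes is of log levels and includes OPCs, whose Grin3a values of 305 to 487 CPM all lay above those of astrocytes (0 to 104 CPM). Astrocytes lay in a pair of clusters of 814 and 544 barcodes, with Grin2c at 447 and 593 CPM and Grin2b at 84.5 and 157 CPM, and the RNA Meg3, abundant in neurons, moved with Grin2b at 154 and 1181 CPM. The part of neuronal RNA in the astrocyte Grin2b level was not tested.

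OPCs differed from excitatory neurons in 4 of 5 members, where 48.3% of genes were called. Grin3a was higher by 2.00 ± 0.21 on the log2 scale (adjusted p = 1.33e-16), and Grin1 (-3.75 ± 0.27), Grin2a (-5.17 ± 0.32) and Grin2b (-5.04 ± 0.34) were lower. These 4 calls were kept in each of 23 alternatives. Against oligodendrocytes, the cells that OPCs give rise to, OPCs were higher in 3 of 5 members, where 46.8% of genes were called. Grin3a was counted 263 times in OPCs and 1 time in oligodendrocytes, a ratio of 354 in level with a 95% counting interval of 63.0 to 14041, and passed the test at an adjusted p of 2.65e-33. Grin1 was higher by 2.19 ± 0.58 (adjusted p = 0.000804) and Grin2b by 1.79 ± 0.66 (0.0191), the latter not without a mouse term (0.0562) or without mouse 9986 (0.143), while Grin2a had 0.88 ± 0.69 (0.309). The Grin1 and Grin2b values rested on few pooled UMIs, 32 against 7 for Grin1 and 29 against 9 for Grin2b. For both genes the ranges of OPCs and oligodendrocytes over mice overlapped. Without the filter on low counts, where 22.5% of genes were called, Grin2d was also higher in OPCs (adjusted p = 7.03e-07). The neuronal marker Snap25 was at 182 CPM in OPCs, 28.6 in oligodendrocytes and 1916 in excitatory neurons, in the same direction as Grin1 and Grin2b. Meg3 was at 2031 CPM in OPCs and 631 in oligodendrocytes, and the excitatory marker Slc17a7 at 32.7 and 13.8 CPM, also in that direction. The 15 listed excitatory markers, Slc17a7 among them, summed to 429 CPM in OPCs and 446 in oligodendrocytes, a sum that did not go in that direction. The part of neuronal RNA in the differences of Grin1 and Grin2b was not tested.

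Within excitatory neurons, the smaller cluster (234 barcodes, with more of the glutamate transporter gene Slc17a6 at 150 CPM against 30.8) was compared with the larger (811 barcodes, 46.2% from mouse 9901). Of 4 members tested 2 were called, where 59.9% of 2662 genes were called. Grin1 was lower in the smaller cluster by a log2 fold change of -0.87 ± 0.21 (adjusted p = 0.00165), with 401 against 703 CPM over pooled UMIs, and stayed called in each of 18 alternatives. Grin2a was lower by -0.58 ± 0.23 (adjusted p = 0.0365), a call lost with RLE factors (0.218), no filter on low counts (0.259) and DESeq2 (0.299), and without mice 9901, 9946, 9971 or 9986 (0.0757, 0.0999, 0.063 and 0.133). Grin2b (-0.04 ± 0.21) and Grin3a (0.10 ± 0.28) had adjusted p of 0.895 and 0.771. The clusters also differed in depth, with medians of 4236 UMIs in the smaller and 1203 in the larger, and in the nuclear RNAs Meg3 (12717 against 36130 CPM) and Malat1 (35729 against 65185 CPM), and the part of these in the Grin1 and Grin2a differences was not tested.

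Treatments were compared over mice within 4 classes, with all 6 comparisons in excitatory neurons, 2 in inhibitory neurons, 2 in astrocytes and 1 in OPCs, so that CORT/Sal was compared with BCD/Sal only in excitatory neurons. Over these 11 comparisons 0 members were called, in edgeR, in DESeq2 or in any alternative. In excitatory neurons the comparisons share control groups and each called 0% of 6541 genes (58 to 168 at an unadjusted p below 0.05, and 0 by DESeq2). The percentage was 0 also in both comparisons of inhibitory neurons (2755 genes, 23 and 18 at an unadjusted p below 0.05, and 0 by DESeq2), 0.0114 in both of astrocytes (8745 genes) and 0.423 in the comparison of OPCs (4967 genes). For Grin1 in excitatory neurons, the vehicle mice had 600 and 457 CPM after saline and 391, 478 and 558 after Ket, and the CORT mice 555 and 511 after saline and 330, 610 and 626 after Ket. The 4 groups overlapped, and the mean of both ketamine effects (with BCD and with CORT) was 0.03 ± 0.41 on the log2 scale (SE, unadjusted p = 0.939 in edgeR, adjusted p = 1.00). Grin2a was at 738 and 364 CPM in vehicle mice given saline, at 832, 597 and 991 in those given Ket, at 502 and 767 in CORT mice given saline, and at 496, 684 and 634 in those given Ket. Grin2b was, in the same order of groups, at 1690 and 557 CPM, at 1685, 717 and 1606, at 1112 and 511, and at 1023, 1008 and 1494. For Grin1, Grin2a and Grin2b the second CORT/Sal value was that of mouse 9970, from 11 barcodes and 3911 UMIs. At that depth 1 UMI equals 256 CPM, so these values rest on few UMIs. Mice of 1 group differed from each other by as much as the groups did, and the mean ketamine effects were 0.51 ± 0.43 for Grin2a and 0.43 ± 0.45 for Grin2b (edgeR, unadjusted p = 0.237 and 0.339, adjusted p = 1.00). Over 19 alternatives the effects ran from 0.33 to 0.96 for Grin2a and from 0.15 to 1.60 for Grin2b. Without mouse 9970 they were -0.15 for Grin1, 0.38 for Grin2a and 0.15 for Grin2b, and without mouse 9969, which leaves CORT/Sal with mouse 9970 alone, 0.80, 0.96 and 1.60. With SEs of this size, changes of that order could not be told from 0. The low BCD/Sal values of mouse 9947 came from 76 excitatory barcodes, 71 of them in the smaller cluster, and with only the larger or only the smaller cluster 0 members were called as well.

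**Figure D3:**
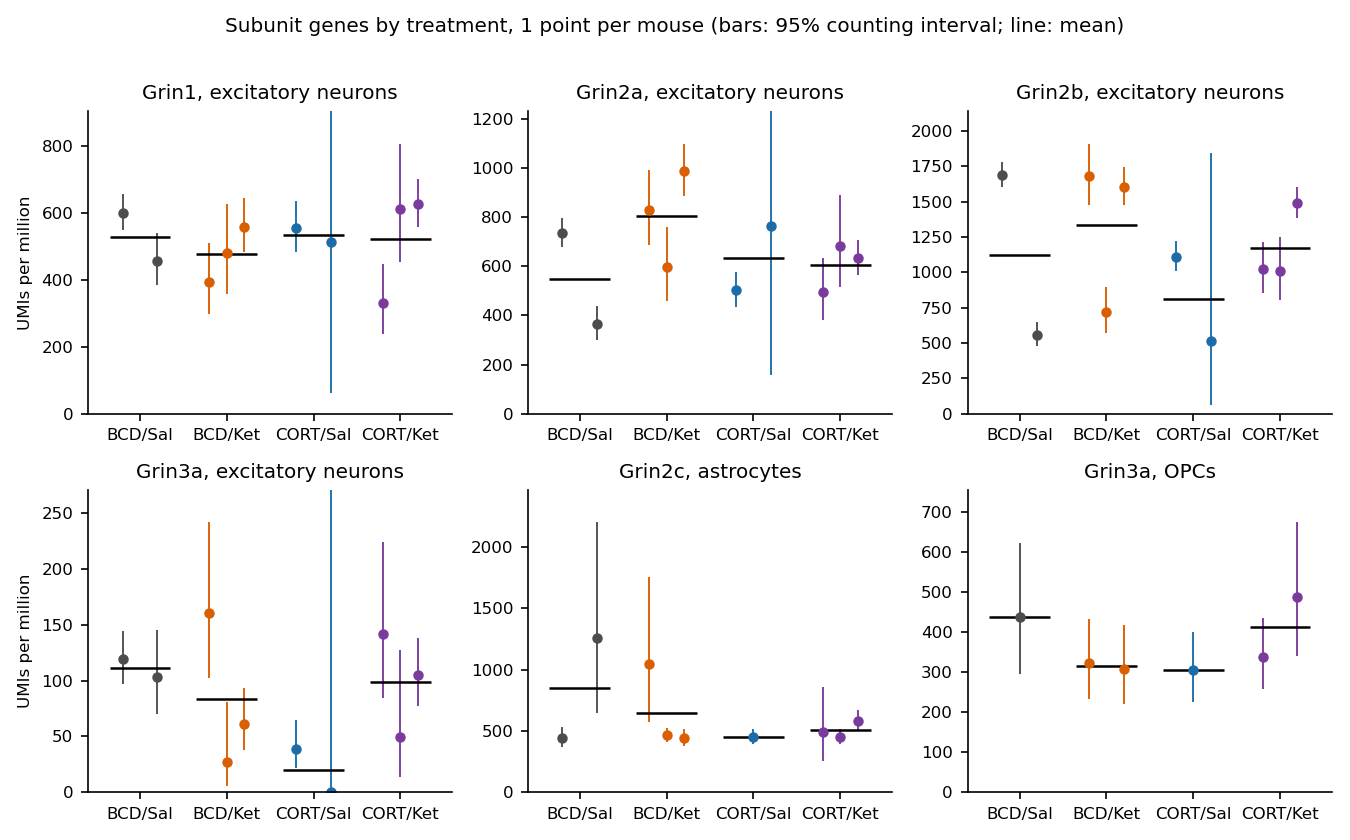
Level in CPM (vertical axis, linear from 0) by treatment group for 4 members in excitatory neurons, Grin2c in astrocytes and Grin3a in OPCs, with 1 point per mouse, 95% counting intervals as vertical bars (those of mouse 9970 run past the top of 3 panels) and group means as lines. In excitatory neurons Grin1 lies between 330 and 626 CPM with the 4 groups overlapping.

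Grin3a in excitatory neurons was the member with unadjusted p below 0.05 in this class. Vehicle mice had 119 and 103 CPM after saline and 161, 27.6 and 61.0 after Ket, and CORT mice 39.2 and 0 after saline and 142, 49.8 and 105 after Ket. Both CORT/Sal values were below those of BCD/Sal and of CORT/Ket, and the value of 0 was that of mouse 9970, whose 3911 excitatory UMIs allow up to 767 CPM at a count of 0. The share of all genes that separate groups this small in this way was not computed, so the separation is only a description. The log2 fold change was -1.67 ± 0.72 for CORT/Sal against BCD/Sal (edgeR, unadjusted p = 0.0234, adjusted p = 0.999) and 1.5 ± 0.71 for CORT/Ket against CORT/Sal (unadjusted p = 0.0378, adjusted p = 1.00). The difference between the ketamine effects with CORT and with BCD was 1.97 ± 0.88 (unadjusted p = 0.028, adjusted p = 0.998). Without mouse 9970 these values were -1.57, 1.40 and 1.89, with CORT/Sal left with 1 mouse and 15 Grin3a UMIs, and without mouse 9969 they were -7.96, 7.80 and 8.28, fitted against a count of 0 and so no estimate of size. The mean ketamine effect on Grin3a was 0.52 ± 0.44 (adjusted p = 1.00), and 3.66 without mouse 9969.

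In inhibitory neurons mouse 9970 had too few barcodes, which left CORT/Sal with 1 mouse and comparisons of BCD/Ket with BCD/Sal and with CORT/Ket. Grin1 in vehicle mice was at 664 and 367 CPM after saline and 403, 335 and 500 after Ket, and in CORT mice at 376 after saline and 448, 1094 and 849 after Ket. Grin2d, which did not pass the filter on low counts and was called in 0 of the 5 alternatives that tested it, was in vehicle mice at 61.5 and 37.3 CPM after saline and 91.1, 152 and 57.7 after Ket, and in CORT mice at 71.6 after saline and 32.0, 45.6 and 119 after Ket. For both genes BCD/Ket overlapped each of the other groups with more than 1 mouse. The lower BCD/Sal value of both genes was that of mouse 9947. Its 72 inhibitory barcodes included 81.8% of the 44 striatal-like ones, the sub-cluster with the lowest Grin2d level. The part of these barcodes in the group values was not tested. Over the 4 tested members the log2 fold changes ran from -0.69 to 0.20 for BCD/Ket against BCD/Sal and from -0.13 to 1.29 for CORT/Ket against BCD/Ket, with unadjusted p of at least 0.343 and 0.0692.

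Grin2c in astrocytes of vehicle mice was at 446 and 1258 CPM after saline and 1046, 464 and 442 after Ket, and in those of CORT mice at 452 after saline and 490, 451 and 580 after Ket. Apart from mice 9947 and 9946, described above for their few astrocytes, the 7 values lay between 442 and 580 CPM. Grin1 and Grin2a in astrocytes passed an unadjusted but not the adjusted threshold for BCD/Ket against BCD/Sal, at -2.16 ± 0.73 (edgeR, unadjusted p = 0.00292, adjusted p = 0.872) and -2.57 ± 0.85 (edgeR, unadjusted p = 0.00255, adjusted p = 0.872). The BCD/Sal mice had 44.2 and 0 CPM of Grin1 and 30.6 and 0 CPM of Grin2a, so that 13 and 9 UMIs of mouse 9901 carried both values. BCD/Ket mice had 0, 7.03 and 11.2 CPM of Grin1 and 0, 1.76 and 8.39 CPM of Grin2a. Meg3, abundant in neurons, moved with them in these astrocytes, at 1321 and 0 CPM in the BCD/Sal mice and 0, 93.2 and 487 CPM in the BCD/Ket mice, and its part in the difference was not tested. In OPCs Grin3a had 323 and 308 CPM in BCD/Ket and 339 and 487 CPM in CORT/Ket, with 437 in the 1 BCD/Sal mouse and 305 in the 1 CORT/Sal mouse. The CORT/Ket values of Grin3a were above those of BCD/Ket in these 4 mice, and the share of all genes that separate them so was not computed. The log2 fold change was 0.30 ± 0.49 (edgeR, adjusted p = 1.00).

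The Grin2a share, Grin2a UMIs as a percentage of Grin2a and Grin2b UMIs together, compares both genes within a library and so does not depend on library scaling. In excitatory neurons of vehicle mice it was 30.4% and 39.5% after saline and 33.1%, 45.5% and 38.1% after Ket, and in those of CORT mice 31.1% after saline (mouse 9969) and 32.6%, 40.4% and 29.8% after Ket. Mouse 9970, with 5 UMIs of both genes, was below the minimum of 10. The 95% exact binomial interval, which covers counting error only, was 28.4% to 32.4% for mouse 9901 and 37.1% to 54.0% for mouse 9949. The groups overlapped, and ketamine mice (36.6% ± 5.83, n = 6) differed from saline mice (33.7% ± 5.07, n = 3) by 2.91 percentage points (two-sided exact permutation p = 0.464). Here and in inhibitory neurons, this comparison pooled BCD and CORT mice without a term for CORT. The saline side was unbalanced, with mice 9901 and 9947 for BCD and only mouse 9969 for CORT. BCD/Ket was above BCD/Sal by 3.93 percentage points (exact permutation p = 0.5), and the difference of CORT/Ket from BCD/Ket was -4.59 (exact permutation p = 0.4), where the smallest p such small groups allow is 0.1. In inhibitory neurons of vehicle mice the share was 33.1% and 35.4% after saline and 28.2%, 18.2% and 35.2% after Ket, and in those of CORT mice 32.7% after saline and 42.5%, 28.1% and 40.4% after Ket. Ketamine mice differed from saline mice there by -1.62 percentage points (exact permutation p = 0.81), BCD/Ket from BCD/Sal by -7.07 (0.4) and CORT/Ket from BCD/Ket by 9.84 (0.3). After adjustment over the 6 tests p ran from 0.6 to 0.81. The inhibitory share of 35.4% was that of mouse 9947, which held most of the striatal-like barcodes. The part of these barcodes in the share was not tested.

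**Figure D4:**
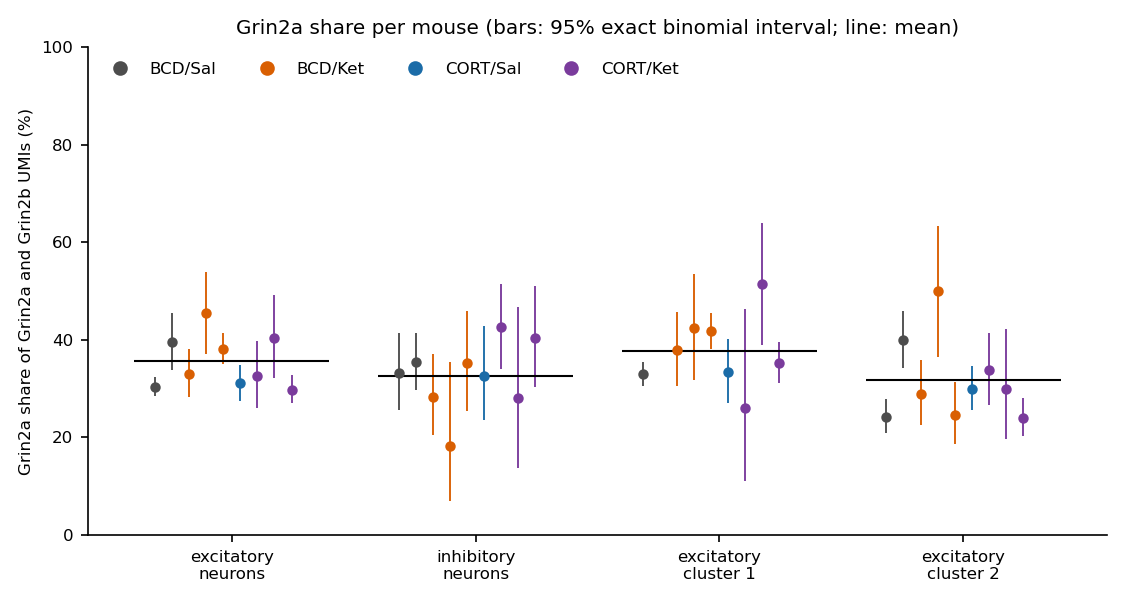
Grin2a share in percent (vertical axis) for excitatory neurons, inhibitory neurons and the larger (1) and smaller (2) excitatory cluster, with 1 point per mouse coloured by treatment group, 95% exact binomial intervals as bars and the mean of the mice shown as a line. The excitatory shares lie between 29.8% and 45.5% and the treatment groups overlap.

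Between neuron classes of the same mice the share was 32.6% ± 7.26 in inhibitory and 35.6% ± 5.46 in excitatory neurons, a difference of -2.97 percentage points (SD 11.6) with inhibitory neurons lower in 5 of 9 mice (two-sided exact sign-flip permutation p = 0.512). Between the excitatory clusters it was 30.7% ± 8.53 in the smaller and 37.6% ± 7.70 in the larger, a difference of -6.96 percentage points (SD 10.6), lower in 6 of 8 mice (exact permutation p = 0.102, adjusted p = 0.203). Leaving out 1 mouse at a time, that difference ran from -9.07 to -4.89. Only without mouse 9949 (-9.05) or mouse 9967 (-9.07) was the unadjusted exact permutation p below 0.05, at 0.0469 and 0.03125. In astrocytes with at least 10 UMIs of both genes the share was 0% to 13.2% in 6 mice, below each of the 9 excitatory values.

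The genes whose levels were most like each member's were found over 53 sums of 8 classes and 9 mice, among 8777 genes, by Pearson's r of log2(CPM + 10). The points share mice and classes, so r is a description. Grin1 was followed most closely by Cacna1b (r = 0.976), Camk2b (0.972) and Trank1 (0.968), Grin2a by Slc12a5 (0.960), Bcl11a (0.955) and Cnnm1 (0.955), and Grin2b by Thy1 (0.95), Gria1 (0.947) and Cpne6 (0.944). The list for Grin2c was Aldh1l1 (0.962), a folate enzyme used as an astrocyte marker, Cyp4f15 (0.960) and Plcd4 (0.945). For Grin2d it was Adarb2 (0.908), a marker of interneurons, C130073E24Rik (0.882) and Dcx (0.849), and for Grin3a Nlgn3 (0.954), Brinp3 (0.947) and Iglon5 (0.936).

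The 36 listed partner genes cover scaffolds of the postsynaptic density, kinases, and the enzymes and carriers that supply glutamate, glycine and D-serine, and 29 were tested between classes. In astrocytes against excitatory neurons 6 were higher and 22 lower, where 63.5% of all genes were called. Their median was -2.36 on the log2 scale against -0.16 over all genes. The higher ones included Glul (5.50), which makes glutamine from glutamate, the glutamate carrier Slc1a2 (4.21) and the glycine carrier Slc6a9 (2.54). Slc7a10, a carrier of D-serine and glycine, was also higher (5.93 ± 0.25, adjusted p = 4.65e-52). It was at 744 ± 212 CPM in astrocytes and 6.55 in excitatory neurons. Clusters were named by fixed markers among their leading genes, and the astrocyte markers include Slc1a2, Slc1a3 and Slc7a10. Slc1a2 was among the leading genes of the astrocyte cluster of 544 barcodes. Carrier levels in astrocytes therefore describe the class and are no independent test of it. In OPCs against oligodendrocytes 19 were higher and 3 lower (median 2.12, all genes 0.22), where 46.8% of all genes were called. In OPCs against excitatory neurons 6 were higher and 20 lower (-1.54, all genes -0.17), where 48.3% were called. The kinase gene Fyn, among the higher partners in both OPC comparisons, is a marker fixed for naming OPCs and so no independent test there. In astrocytes against the other non-neuronal classes 12 were higher and 5 lower (0.26, all genes 0.01), where 51.8% were called. Between inhibitory and excitatory neurons 13.2% of all genes were called, with a split between higher and lower that changed with the scaling. Inhibitory neurons had 1 partner higher than excitatory neurons, Neto1 (1.02 ± 0.26, adjusted p = 0.00218), and 7 lower, with a median of -0.43 against -0.23 over all genes. The kinase subunit gene Camk2a, whose product binds GluN2B, was the lowest of these at -1.25 ± 0.23 (adjusted p = 1.55e-05). Between the excitatory clusters 2 of 21 tested partners were higher in the smaller (Dlg3 and Rasgrf2) and 6 lower, among them the scaffold genes Shank1 and Dlg4. In that comparison 59.9% of all 2662 genes were called, a larger share than of the partners. By treatment 0 partners were called in any of the 11 comparisons, where 0% to 0.423% of all genes were called.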

How the data were processed

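Single-cell RNA-seq (10x Chromium, 1 library per mouse) of the BLA of 10 mice was used; prefrontal cortex samples were not analysed here. The authors deposited unnormalized UMI counts as filtered matrices, 1 per mouse, from Cell Ranger (version 3.0.2 per the file headers) after alignment to mm9. Of 31053 gene identifiers listed, 23006 are in GENCODE M1, which leaves the authors' annotation uncertain. The deposited barcode and feature files give barcodes and gene symbols and no score or other value. The authors' submitted processing notes also name Seurat 3.1.1, used for their own later analysis. Cell Ranger called barcodes over all genes, which favours deep cells, and UMIs were counted, so PCR copies do not add. The study's methods give the vehicle as BCD in one place and regular water in another, and the labels' BCD is used.

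Barcodes with at least 200 genes and at most 12.5% mitochondrial UMIs were kept. Counts were scaled to 10000 per barcode and logged, and 2000 variable genes (members and partners left out), 30 components, 20 neighbours and Leiden clustering at 0.8 were used (scanpy 1.11.5, leidenalg 0.10.2, numpy 2.4.6, pandas 2.3.3, scikit-learn 1.9.0, Python 3.11.15). Clusters were named by at least 3 fixed markers among their 50 leading genes. No doublets were removed. As an alternative, 0.8% of barcodes per 1000 in a library were removed by Scrublet score. UMIs were summed per mouse and class of at least 10 barcodes and tested in edgeR 4.0.16 (quasi-likelihood, TMM, filterByExpr, R 4.3.3), with the mouse as a block between classes and the 4 groups in 1 fit for treatment, with DESeq2 1.42.0 as an alternative. The Grin2a share was tested by exact permutation (scipy 1.17.1). Figures were drawn in matplotlib 3.10.9. The edgeR test returns no SE, so each SE given for it is the absolute log2 fold change divided by the square root of the F statistic. The fits were tested on simulated counts.

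The planned interneuron contrast was run on the whole inhibitory cluster, and the striatal-like contrast was left out since 1 mouse held most of those barcodes. The p-values by treatment set differences against the spread between mice. Those between classes or clusters, with the mouse as a block, set them against the spread that remains within mice. The members and gene lists were chosen with earlier results of these data known: the named genes are the 6 members, 36 partners and, for each member, the 3 genes most like it. The treatment fits on each excitatory cluster alone were chosen after seeing the data. Intervals (95%) and floors (3 counts) cover counting error only.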

Additional observations from a re-analysis of the deposited data

Results flagged for a closer look

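Barcodes outside the comparisons also held members, and these signals are listed because they were measured in data the comparisons did not use. Kept barcodes of no named class held Grin1 at 382 CPM, Grin2a at 175, Grin2b at 556, Grin2c at 118, Grin2d at 19.0 and Grin3a at 67.7 CPM over pooled UMIs. Nearly all of them form 1 cluster of 2351 barcodes, of which 99.7% came from mouse 9970, led by Bc1, Gng13 and Ddn. No mouse other than this CORT/Sal mouse therefore bears on it. Barcodes of no named class also held the 15 listed excitatory markers at 4939 CPM, against 5787 in excitatory neurons, over pooled UMIs. The part of neuronal RNA in their member levels was not tested. Barcodes left out by the limits on mitochondrial share and genes held Grin1 at 111 CPM, Grin2a at 104, Grin2b at 264, Grin2c at 33.9, Grin2d at 6.47 and Grin3a at 35.6 CPM.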

How the results depend on the processing

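Astrocyte and OPC contrasts against excitatory neurons kept all member calls in each alternative run. For inhibitory against excitatory neurons the main fit called 1 of 5 members, Grin2a, where 13.2% of genes were called. The count was 3 (Grin2a, Grin2b and Grin2d) with at least 500 genes, Leiden 0.4 or 1.2, Scrublet removal, no filter or at least 30 barcodes. It was 2 with a mitochondrial limit of 25% (Grin2b and Grin2d, without Grin2a) or members kept in the clustering (Grin2a and Grin2d). Grin2d was not tested in the main fit, so counts that include it come from a larger set and do not add to the Grin2a call. The count was 0 with RLE factors, library totals, DESeq2 or no replicate block, and 0 to 3 leaving out 1 mouse. For the excitatory clusters (2 called, Grin1 and Grin2a) it was 1, Grin1, with RLE, no filter or DESeq2, and 1 to 2 leaving out 1 mouse. Scaling moved the share of higher calls among all genes from 22.2% to 54.6% (RLE), 48.3% (totals) and 59.8% (DESeq2) for inhibitory against excitatory neurons, where the median of all genes went from -0.23 to 0.05, 0.02 and 0.11. It moved from 41.5% to 54.4%, 53.1% and 56.3% for OPCs against excitatory neurons, from 60.4% to 72.9%, 74.8% and 72.9% for OPCs against oligodendrocytes, and from 51.1% to 67.9% (RLE) and 71.8% (DESeq2) for the excitatory clusters.

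Directions also turned for members that were not called above. Grin1, inhibitory against excitatory: 0.044 (25% limit), 0.10 (RLE), 0.033 (totals) and 0.14 (DESeq2). Grin3a in the same contrast: -0.13 (500 genes) and -0.029 (no filter), and -0.051 to 0.23 leaving out 1 mouse. Grin3a, astrocytes against excitatory: 0.38 (25% limit) and 0.080 (Leiden 1.2), and -0.73 to 0.083 leaving out 1 mouse. Grin2b, excitatory clusters: 0.0041 (Scrublet), 0.19 (RLE), 0.093 (no filter) and 0.19 (DESeq2), and -0.14 to 0.16 leaving out 1 mouse. Grin3a there: -0.077 (Leiden 1.2), -0.19 (members kept) and -0.068 (Scrublet). The mean ketamine effect on Grin1 was -0.0042 (Leiden 0.4 and 1.2), -0.0082 (RLE), -0.012 (DESeq2), -0.10 (totals) and -0.031 (no filter), and -0.15 to 0.80 leaving out 1 mouse. The cause was not tested.

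For the Grin2a share, leaving out 1 mouse gave -0.626 to 8.49 percentage points for excitatory BCD/Ket against BCD/Sal, -3.70 to 1.17 for inhibitory ketamine against saline (0.601 with pooled UMIs), -4.67 to 0.0703 for inhibitory against excitatory neurons (0.706 at the 25% limit), and -9.07 to -4.89 for the excitatory clusters. For the clusters, a minimum of 30 UMIs left out only mouse 9967. It therefore repeated the result without that mouse (-9.07, unadjusted exact permutation p = 0.03125) and is no further test. Thinned to 500 UMIs, excitatory shares were 28.1% (Grin1), 29.0% (Grin2a) and 46.8% (Grin2b), inhibitory Grin1 24.2%, astrocyte Grin2b 5.80% and Grin2c 22.1%, and OPC Grin3a 19.3%.

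The limits of 500 genes, 5% and 25% mitochondrial share, 30 barcodes and Leiden 0.4 gave no value for the excitatory clusters, and 5% none for inhibitory neurons. The no replicate block fit changed 1 further call, Grin2b in OPCs against oligodendrocytes, given above. No paired analysis was possible by treatment because groups share no replicate numbers. Depth limits Grin2d, Grin2c outside astrocytes and all values of mouse 9970.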
